A study of Homo sapiens with 8 samples.

Results

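The results below describe the ac4C immunoprecipitation peaks of HMGA1, CMIP, ADAMTS12 and SERINC2, 4 genes that hold wide peaks in 2 human osteosarcoma cell lines. Every deposited interval that overlaps the GRCh38 span of 1 of these genes was taken, which gave 61 of 31395 peaks, with 6 in HMGA1, 18 in CMIP, 27 in ADAMTS12 and 10 in SERINC2. All 61 passed the filter on low counts. The genes were picked with the widths and counts of these same tables in view, so widths, levels and shifts within a line are given as description with no test. The only test run was a fit over all peaks across both lines, in which the members were included.

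N4-acetylcytidine (ac4C) is an acetylated cytidine that the enzyme NAT10 writes into ribosomal RNA, transfer RNA and, as reported, messenger RNA. In acRIP, fragmented RNA is incubated with an antibody against ac4C and the fragments that bind are sequenced, so a count reflects both how much of an RNA is present and how well it is recovered. HMGA1 is an architectural chromatin protein that binds AT-rich DNA and is abundant in many tumours. CMIP is a signalling adaptor first described in T cells, ADAMTS12 is a secreted metalloprotease of the extracellular matrix, and SERINC2 belongs to the serine incorporator family of membrane proteins.

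The 4 libraries used were the anti-ac4C libraries labelled 143B sgNAT10, 143B NC, HOS sgNAT10 and HOS NC, where sgNAT10 is the NAT10 knockout and NC the control. Both lines are osteosarcoma lines, and 143B was derived from HOS by transformation with a sarcoma virus, so they are related. Poly(A) RNA was enriched before fragmentation in every library. There was 1 library per line and genotype, and the labels do not say whether the knockout cells were a clone or a pool. Input libraries were not used here.

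Counts over all peaks totalled 22365529 in 143B labelled sgNAT10 and 20107718 in 143B NC, and 21132328 in HOS sgNAT10 and 24785306 in HOS NC. Reads outside peaks are not in these sums, so they give no sequencing depth. Across the 24467 peaks that passed the filter, the 143B labelled sgNAT10 library had Spearman correlations of 0.602 to 0.695 with the other libraries, which correlated at 0.822 to 0.879 with each other. Every 143B shift rests on this library, and the HOS shifts are the values without it. The single NAT10 peak had 4.63 CPM (counts scaled to library size) in 143B labelled sgNAT10 against 3.27 in 143B NC, and 2.74 in HOS sgNAT10 against 9.97 in HOS NC, with log2 shifts of 0.50 (0.06 to 0.95) in 143B and -1.85 (-2.30 to -1.44) in HOS. The level thus went against the knockout label in 143B, where the library is named by its label throughout, and where the guide cuts relative to this peak is not given in the sources used here. Of 10 osteoblast and mesenchymal markers, RUNX2, ALPL, SPARC and VIM had an assigned peak, while COL1A1, COL1A2, SPP1, IBSP, BGLAP and TWIST1 had none, and the summed level of the 4 was 274 CPM in 143B labelled sgNAT10 against 520 in 143B NC, and 956 in HOS sgNAT10 against 996 in HOS NC. Most of this sum was VIM, and in HOS the others went apart, with SPARC at 18.7 CPM in sgNAT10 against 68.2 in NC and RUNX2 at 12.7 in sgNAT10 against 7.37 in NC. Of 5 epithelial markers, 3 had a peak, with a summed level of 89.4 CPM in 143B labelled sgNAT10 against 64.2 in 143B NC, and 108 in HOS sgNAT10 against 121 in HOS NC, and CDH1 among them had 812 counts in HOS sgNAT10 against 5 in HOS NC. EPCAM and KRT19 had no peak, PTPRC was the only one of 3 blood markers with a peak, at most 0.783 CPM in any library, and neither of 2 liver markers had one, and the part of these markers in the results was not tested.

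The reference tables hold letters for few of the intervals, and the sequences shown are those that lie inside or across a member peak, so that a reader can see what these peaks cover. They come from RefSeq (GRCh38.p14). A promoter window here runs from 250 bases before to 50 bases after a transcript start, on the transcript's strand, and capitals mark the bases inside the peak. If the deposited starts count from 0, the first capital of the SERINC2 and LOC100129617 windows moves by 1 base. ADAMTS12 peak 1 covers the annotated transcript start on the minus strand (window chr5:33891941-33892240, 102 bases in the peak). SERINC2 peak 2 lies inside the window of an alternative start (chr1:31413563-31413862, plus strand, 99 bases in the peak). It ends at 31413787, before that start at 31413813, so it does not cover the start. CMIP peak 12 covers the start of the long noncoding RNA gene LOC100129617, which lies within the CMIP span on the same strand (chr16:81665104-81665403, 188 bases in the peak).
ADAMTS12: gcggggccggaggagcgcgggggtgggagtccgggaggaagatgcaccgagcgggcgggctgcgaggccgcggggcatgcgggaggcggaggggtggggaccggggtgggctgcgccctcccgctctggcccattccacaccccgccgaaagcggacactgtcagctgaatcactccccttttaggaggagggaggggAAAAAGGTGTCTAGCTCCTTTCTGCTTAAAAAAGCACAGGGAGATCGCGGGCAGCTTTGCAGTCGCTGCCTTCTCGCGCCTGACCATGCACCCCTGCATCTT
SERINC2: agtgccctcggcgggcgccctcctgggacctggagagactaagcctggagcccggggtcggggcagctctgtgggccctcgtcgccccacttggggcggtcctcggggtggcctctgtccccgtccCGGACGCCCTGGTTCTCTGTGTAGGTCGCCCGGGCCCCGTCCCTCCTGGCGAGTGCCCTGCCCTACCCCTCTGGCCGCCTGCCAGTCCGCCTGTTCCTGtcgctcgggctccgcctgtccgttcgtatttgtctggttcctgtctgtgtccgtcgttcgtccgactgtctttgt
LOC100129617: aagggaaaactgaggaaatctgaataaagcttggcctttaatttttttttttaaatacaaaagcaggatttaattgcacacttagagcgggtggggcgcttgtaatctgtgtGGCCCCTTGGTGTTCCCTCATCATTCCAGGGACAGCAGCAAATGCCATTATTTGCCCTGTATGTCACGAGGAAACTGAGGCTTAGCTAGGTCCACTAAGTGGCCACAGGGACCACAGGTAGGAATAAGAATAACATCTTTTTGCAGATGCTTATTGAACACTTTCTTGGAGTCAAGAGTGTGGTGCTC
HMGA1 peak 3 contains the microRNA gene MIR6835, whose mature products map to chr6:34240678-34240699 and chr6:34240714-34240736 on the plus strand. They are shown with the seed, bases 2 to 8, in capitals, and the seeds differ. Reads from the microRNA precursor and from HMGA1 cannot be told apart in this interval.
hsa-miR-6835-5p: aGGGGGUAgaaaguggcugaag
hsa-miR-6835-3p: aAAAGCACuuuucugucucccag

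The repeat CNNCNNCNNCNN, a C followed by any 2 bases 4 times over, which has been reported at ac4C sites, was searched on both strands of the promoter windows with overlapping matches counted. The ADAMTS12 window held 2 matches on the transcript strand and 14 on the other, of which 1 on each strand lay wholly within the peak. The SERINC2 window held 1 and 2 and the LOC100129617 window 0 and 1, none of them wholly within the peak. The motif occurs in 90.3% of all 35116 windows on either strand and in 74.9% on the transcript strand, so its presence separates few windows.

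In 143B, the signal of all 4 genes was much lower in sgNAT10 than in NC, and in HOS it was moderately higher in sgNAT10. Summed over a gene's peaks, log2 shifts (sgNAT10 minus NC, in log2 CPM) ran between -3.41 and -1.80 in 143B and between 0.41 and 0.75 in HOS. All 61 peaks were lower in 143B labelled sgNAT10, and 47 of 61 were higher in HOS sgNAT10, while across all tested peaks 48.4% lay below 0 in 143B and 63.3% above 0 in HOS. The 14 exceptions in HOS lay in CMIP (12) and ADAMTS12 (2), and there were 16 with DESeq2-type or upper quartile factors and 6 with totals alone.

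HMGA1 (Gene ID 3159, chromosome 6, 34236873 to 34246231, plus strand) had 11202 counts in 143B labelled sgNAT10 against 36499 in 143B NC, and 64645 in HOS sgNAT10 against 30076 in HOS NC. Its shift was -2.20 in 143B (-2.23 to -2.17, a 95% interval for counting error only, as are all intervals on shifts and levels) and 0.75 in HOS (0.73 to 0.77). CMIP (Gene ID 80790, chromosome 16, 81444808 to 81711762, plus strand) had 2500 counts in 143B labelled sgNAT10 against 15406 in 143B NC, and 26857 in HOS sgNAT10 against 14727 in HOS NC. Its shifts of -3.12 (-3.18 to -3.06) and 0.52 (0.49 to 0.54) were thus larger in 143B and smaller in HOS than those of HMGA1. ADAMTS12 (Gene ID 81792, chromosome 5, 33523535 to 33891990, minus strand) had 1697 counts in 143B labelled sgNAT10 against 12791 in 143B NC, and 28417 in HOS sgNAT10 against 16489 in HOS NC. It had the lowest 143B shift of the 4 genes, -3.41 (-3.49 to -3.34), with 0.43 (0.41 to 0.46) in HOS. SERINC2 (Gene ID 347735, chromosome 1, 31409777 to 31434678, plus strand) had 8661 counts in 143B labelled sgNAT10 against 21312 in 143B NC, and 23101 in HOS sgNAT10 against 13667 in HOS NC, shifts of -1.80 (-1.83 to -1.76) and 0.41 (0.38 to 0.44). Scaling used TMM factors, which assume that most peaks do not change, and values that turn sign with DESeq2-type or upper quartile factors, or with totals over peaks alone, are named as such. With 1 library per group, no spread between replicates stands behind these intervals, which are narrow because the counts are high.

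Per kilobase of peak, HMGA1 had the highest level of the 4 genes in every library, with 160 CPM per kb in 143B labelled sgNAT10 against 736 in 143B NC, and 1127 in HOS sgNAT10 against 669 in HOS NC. SERINC2 followed with 71.6 in 143B labelled sgNAT10 against 249 in 143B NC, and 233 in HOS sgNAT10 against 176 in HOS NC. CMIP and ADAMTS12, whose peaks cover several times more sequence, lay lower and near each other in 143B, at 5.49 and 4.67 CPM per kb in sgNAT10 against 47.8 and 49.8 in NC. In HOS they had 72.0 and 95.5 CPM per kb in sgNAT10 against 50.3 and 70.7 in NC.

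Among the libraries, 143B labelled sgNAT10 held the lowest level of each gene and HOS sgNAT10 the highest of HMGA1, CMIP and ADAMTS12. For each gene the 2 control libraries lay closer together than the 2 sgNAT10 libraries did. HMGA1 had 1834 CPM (1815 to 1853) in 143B NC and 1666 (1647 to 1685) in HOS NC, a log2 difference of 0.14 between the lines. For CMIP the levels were 774 CPM (762 to 786) in 143B NC and 816 (803 to 829) in HOS NC, a difference of -0.08, and the order of these 2 libraries turned with upper quartile factors or with totals alone. ADAMTS12 had 643 CPM in 143B NC and 913 in HOS NC (-0.51). SERINC2 had 1071 CPM in 143B NC and 757 in HOS NC (0.50), and 143B NC also lay above the 1003 CPM of HOS sgNAT10, an order that turned with library totals alone. The counting intervals of neighbouring libraries did not overlap for any of the 4 genes, but the spread between cultures is unknown.

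**Figure D1:**
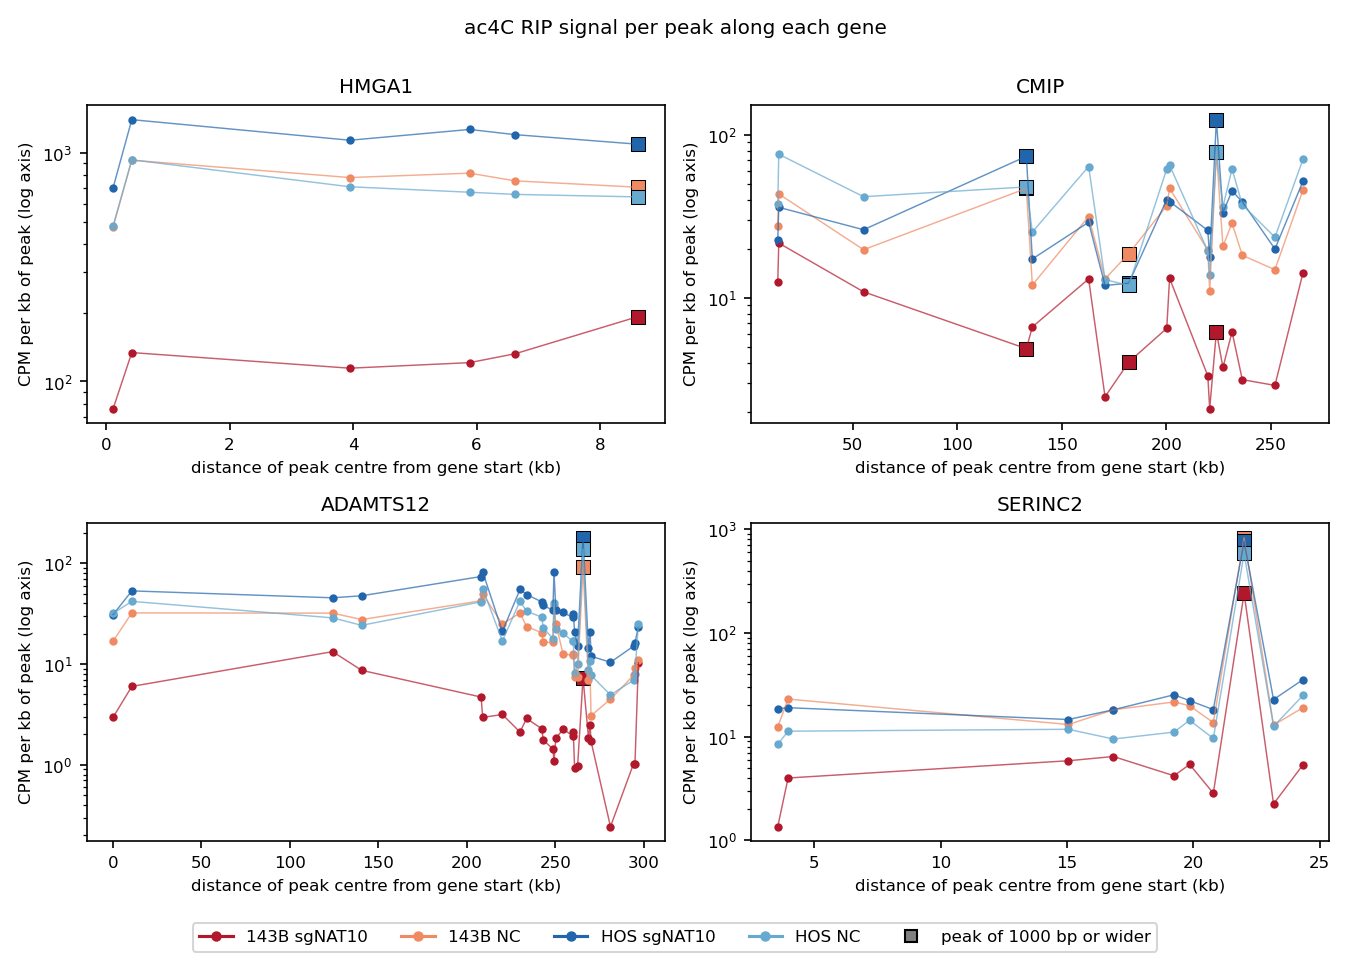
Level of each peak (CPM per kb of peak, log axis) against the distance of its centre from the gene start in the direction of transcription, for the 4 libraries. Squares are peaks of 1000 bp or wider. The 143B labelled sgNAT10 points lie lowest at all 61 peaks, and SERINC2 has a single high peak that stands far above its neighbours in every library.

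The wide peaks sat at different places in the genes. Of the 61 peaks, 6 were 1000 bp or wider, against a median of 145 bp over the 15352 peaks of protein-coding genes. The widths just inside this limit were 1223 and 1236 bp, and those just outside were 887 and 845 bp. The widest, at 5412 bp in ADAMTS12 and at 5346 and 5100 bp in CMIP, ranked 12, 14 and 15 by width among peaks of protein-coding genes. HMGA1 peak 6, CMIP peak 8 and SERINC2 peak 8 ranked 248, 294 and 298 by width. By mean count, HMGA1 peak 6 ranked 6, SERINC2 peak 8 ranked 8 and ADAMTS12 peak 20 ranked 11. CMIP peaks 13, 4 and 8 ranked 15, 45 and 1454 by mean count. The annotation used gives gene spans and start sites but no exons, so peaks were not assigned to exons or introns.

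HMGA1 carried strong signal in separate peaks spread from near its start to near its end, which cover 2490 bp of its 9359 bp span. Its peaks 1 to 5 (at most 334 bp wide) and its peak 6 (1401 bp, 34244790 to 34246191, ending 40 bp before the end of the gene) were of the same order per kilobase within a library, with peak 1 the lowest. Peak 6 had 192 CPM per kb in 143B labelled sgNAT10 against 707 in 143B NC, and 1091 in HOS sgNAT10 against 642 in HOS NC. Peak 2, near the gene start (34237199 to 34237382), had 134 in 143B labelled sgNAT10 against 929 in 143B NC, and 1397 in HOS sgNAT10 against 932 in HOS NC. The wide peak of HMGA1 was therefore no denser than its narrow ones in 143B NC, HOS sgNAT10 and HOS NC, at 0.907, 0.908 and 0.954 times their median, and 1.59 times their median in 143B labelled sgNAT10.

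In 143B, HMGA1 peak 6 had a smaller shift than the other peaks of the gene. It is both the last and the only wide peak of HMGA1, and the part of position or width was not tested. Peaks 1 to 5 had shifts between -2.79 and -2.51, and peak 6 had -1.88 (-1.92 to -1.84), with 7575 counts in 143B labelled sgNAT10 against 19724 in 143B NC. Peak 5, which lies 1182 bp before it, had 836 counts in 143B labelled sgNAT10 against 3378 in 143B NC, a shift of -2.51 (-2.62 to -2.40). In HOS the 6 shifts lay between 0.55 (peak 1) and 0.91 (peak 4), with peak 6 at 0.77 (0.74 to 0.79) on 35200 counts in sgNAT10 against 16233 in NC. Peak 6 thus held 67.6% (66.7 to 68.5, exact binomial interval) of HMGA1 counts in 143B labelled sgNAT10 against 54.0% (53.5 to 54.6) in 143B NC, and 54.5% in HOS sgNAT10 against 54.0% in HOS NC. Peaks 1 and 2 also overlap the predicted gene LOC124901225, whose reads cannot be told apart from those of HMGA1.

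HMGA1 has near-identical processed pseudogenes, and what was done with multiply mapping reads is not given in the sources used here. Of the 8 annotated HMGA1 pseudogenes, HMGA1P3 had an assigned peak, with 49 counts in 143B labelled sgNAT10 against 285 in 143B NC, and 309 in HOS sgNAT10 against 99 in HOS NC. Its shifts were -3.01 (-3.51 to -2.60) in 143B and 1.28 (0.96 to 1.63) in HOS. They had the same signs as those of HMGA1 (-2.20 and 0.75) and were larger in size. Reads of the parent gene may have been counted there, which was not tested.

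The signal of SERINC2 came nearly all from a single interval. Peak 8 (31431177 to 31432400, 1223 bp, 2278 bp before the gene end) had 8325 counts in 143B labelled sgNAT10 against 20325 in 143B NC, and 21599 in HOS sgNAT10 against 12979 in HOS NC. It held 96.1% of SERINC2 counts in 143B labelled sgNAT10 against 95.4% in 143B NC, and 93.5% in HOS sgNAT10 against 94.97% in HOS NC. The gaps to its neighbours are 163 and 261 bp, yet peak 7 had 71 counts in 143B labelled sgNAT10 against 241 in 143B NC, and 373 in HOS sgNAT10 against 154 in HOS NC. Per kilobase, peak 8 exceeded peak 7 by 85.0 times in 143B labelled sgNAT10 and 61.2 times in 143B NC, and by 42.0 times in HOS sgNAT10 and 61.1 times in HOS NC. Such a step was seen in no other wide peak of the 4 genes, where the ratio to a neighbour within 300 bp reached at most 15.8.

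The narrow peaks of SERINC2 shared the direction of the wide one. In 143B the shift of peak 8 was -1.79 (-1.82 to -1.75), and the 9 narrow peaks ran between -2.85 (peak 1, 4 counts in sgNAT10 against 26 in NC) and -1.14 (peak 3, 41 in sgNAT10 against 65 in NC). In HOS, peak 8 had 0.38 (0.35 to 0.41) and the narrow peaks between 0.31 (peak 3) and 1.18 (peak 5, 114 counts in sgNAT10 against 39 in NC). Summed, the narrow peaks had 0.77 (0.64 to 0.91) in HOS, above the interval of peak 8. Peaks 4 to 10 also overlap the long noncoding RNA gene LOC124903900, and how the deposited counts treat strand is not given in the sources used here.

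ADAMTS12 held 1 wide peak far inside its span. Peak 20 (33623672 to 33629084, 5412 bp) begins 262.9 kb from the transcript start and lies 100137 bp from the far end of the gene. It had 1109 counts in 143B labelled sgNAT10 against 9849 in 143B NC, and 22400 in HOS sgNAT10 against 13421 in HOS NC, shifts of -3.65 (-3.74 to -3.56) and 0.39 (0.36 to 0.42). The peaks on its sides, 19 and 21, lie 233 and 260 bp away and were weaker per kilobase in every library. Peak 19 had 7 counts in 143B labelled sgNAT10 against 38 in 143B NC, and 89 in HOS sgNAT10 against 46 in HOS NC. Per kilobase, peak 20 exceeded peak 19 by 7.49 times in 143B labelled sgNAT10 and 12.3 times in 143B NC, and by 11.9 times in HOS sgNAT10 and 13.8 times in HOS NC. It exceeded peak 21 by 3.92 times in 143B labelled sgNAT10, where peak 21 had 9 counts, and 13.04 times in 143B NC, and by 12.5 times in HOS sgNAT10 and 15.8 times in HOS NC.

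The narrow peaks of ADAMTS12 covered a wide range in 143B. The lowest shift was that of peak 13, -4.61 (-7.41 to -3.50), with 3 counts in 143B labelled sgNAT10 against 73 in 143B NC. Peak 24 had 2 counts in 143B labelled sgNAT10 against 26 in 143B NC, a shift of -3.54 (-7.32 to -2.20). At so few counts the size of these shifts is uncertain, as their intervals show. The shift nearest 0 was that of peak 27, the last in the direction of transcription, with 37 counts in 143B labelled sgNAT10 against 28 in 143B NC (-0.09, -0.84 to 0.67), and peak 23 also had an interval that held 0 (-0.78, -2.13 to 0.40). The sign of peak 27 turned with upper quartile factors or with totals alone.

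In HOS, 25 of the 27 ADAMTS12 peaks were higher in sgNAT10, and the count was 25 with 2 other scalings and 27 with library totals alone. The highest shift was that of peak 18 (845 bp), with 409 counts in HOS sgNAT10 against 124 in HOS NC (1.36, 1.08 to 1.67). Peak 1, which covers the transcript start shown above, had 265 counts in HOS sgNAT10 against 214 in HOS NC, a shift of -0.04 (-0.31 to 0.22), while it had 31 in 143B labelled sgNAT10 against 125 in 143B NC, a shift of -2.46 (-3.13 to -1.93). Peak 27 had 69 counts in HOS sgNAT10 against 58 in HOS NC (-0.10, -0.63 to 0.43). Peaks 1 and 27 were therefore the 2 ADAMTS12 peaks without a higher value in HOS sgNAT10. Both HOS intervals held 0, and with totals alone both peaks were higher in HOS sgNAT10 (0.54 and 0.48).

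CMIP held 3 wide peaks, of which peaks 4 and 13 had shifts outside the range of its narrow peaks in both lines and peak 8 had shifts within it. Peak 4 (81575285 to 81580385, 5100 bp) had 699 counts in 143B labelled sgNAT10 against 4762 in 143B NC, and 8676 in HOS sgNAT10 against 4413 in HOS NC, shifts of -3.26 (-3.38 to -3.15) and 0.62 (0.57 to 0.68). Peak 13 (81666111 to 81671457, 5346 bp), which begins within LOC100129617, had 931 counts in 143B labelled sgNAT10 against 8359 in 143B NC, and 15260 in HOS sgNAT10 against 7546 in HOS NC. Its shifts were -3.66 (-3.76 to -3.57) and 0.66 (0.62 to 0.70). Peak 8 (81626200 to 81627436, 1236 bp) was much weaker, with 140 counts in 143B labelled sgNAT10 against 459 in 143B NC, and 350 in HOS sgNAT10 against 266 in HOS NC. Its shift was -2.20 (-2.49 to -1.93) in 143B and 0.04 (-0.19 to 0.28) in HOS, where the sign turned with DESeq2-type and upper quartile factors.

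The 15 narrow CMIP peaks held few counts and had smaller 143B shifts than peaks 4 and 13. In 143B their shifts lay between -2.54 and -0.84, and peaks 9 and 10 among them also overlap the annotated gene LOC105371362. In HOS 12 of 15 were lower in sgNAT10, a count that was 13 with DESeq2-type and upper quartile factors and 6 with totals alone. Among other narrow peaks of protein-coding genes, 48.4% were lower in HOS sgNAT10. That share was 66.9% among those with a mean count of 100 or more, so lower values in HOS were common in such peaks. Peak 2 (81459298 to 81459408) had 67 counts in 143B labelled sgNAT10 against 95 in 143B NC, and 91 in HOS sgNAT10 against 151 in HOS NC, shifts of -0.99 (-1.47 to -0.54) and -1.07 (-1.47 to -0.70). Peak 6 (81607548 to 81607736) had 69 counts in 143B labelled sgNAT10 against 118 in 143B NC, and 126 in HOS sgNAT10 against 217 in HOS NC, with shifts of -1.26 (-1.72 to -0.83) and -1.13 (-1.46 to -0.81). Of all 61 member peaks, these were the only 2 that lay at least 2-fold lower in HOS sgNAT10, and with totals alone none did (-0.49 for peak 2 and -0.55 for peak 6).

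The contrast within CMIP was seen between peaks 170 bp apart. Peak 5 had 57 counts in 143B labelled sgNAT10 against 73 in 143B NC, and 122 in HOS sgNAT10 against 140 in HOS NC, shifts of -0.84 (-1.38 to -0.34) and -0.55 (-0.91 to -0.19), beside peak 4 at -3.26 and 0.62. Per kilobase, peak 4 had 0.736 times the counts of peak 5 in 143B labelled sgNAT10 and 3.91 times in 143B NC, and 4.27 times in HOS sgNAT10 and 1.89 times in HOS NC. This ratio within a library does not depend on the scaling between libraries. Around peak 13, the narrow peaks 11 and 12 were higher in HOS sgNAT10 than in HOS NC (0.42, 0.18 to 0.66, and 0.35, 0.08 to 0.63), and peak 14, 268 bp beyond it, had -0.12 (-0.37 to 0.13). Peaks 11 to 14 form a run of 7758 bp with gaps under 300 bp.

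As a share, the wide peaks held 70.8% (69.0 to 72.6) of CMIP counts in 143B labelled sgNAT10 against 88.1% (87.6 to 88.7) in 143B NC, and 90.4% (90.1 to 90.8) in HOS sgNAT10 against 83.0% (82.4 to 83.6) in HOS NC. In ADAMTS12 the share was 65.4% (63.0 to 67.6) in 143B labelled sgNAT10 against 77.0% (76.3 to 77.7) in 143B NC, and 78.8% in HOS sgNAT10 against 81.4% in HOS NC. The wide share was thus lower in 143B labelled sgNAT10 than in 143B NC in CMIP and ADAMTS12, and higher in HMGA1. In SERINC2 it was slightly higher, at 96.1% (95.7 to 96.5) in 143B labelled sgNAT10 against 95.4% (95.1 to 95.6) in 143B NC. In log2 terms, the wide sum minus the narrow sum of shifts in 143B was -1.62 in CMIP, -0.83 in ADAMTS12, 0.83 in HMGA1 and 0.26 in SERINC2.

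**Figure D2:**
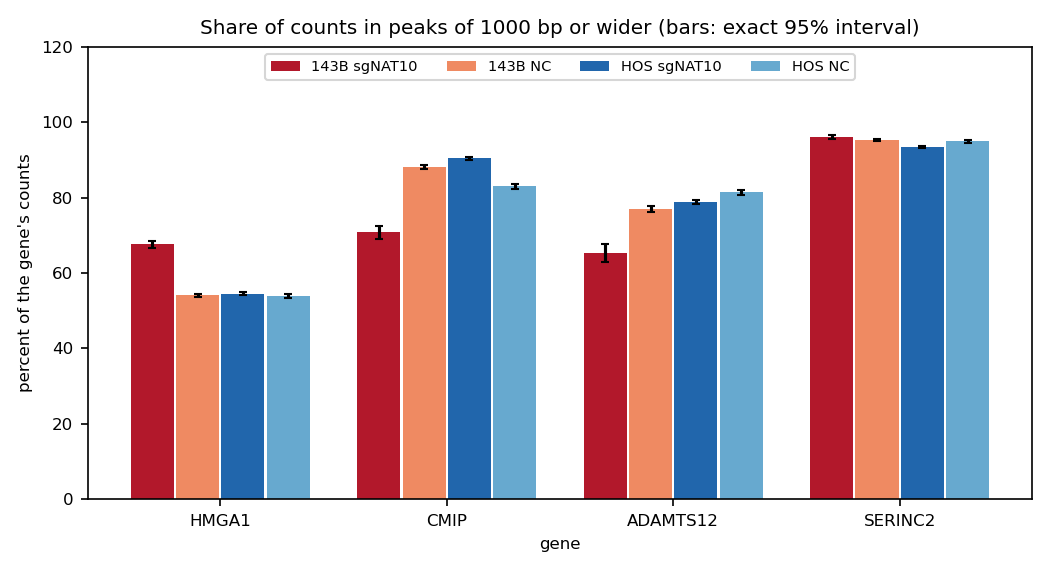
Share of each gene's counts (percent) held by its peaks of 1000 bp or wider, in the 4 libraries, with exact 95% binomial intervals for counting error only. HMGA1 is at 67.6% in 143B labelled sgNAT10 and 54.0% to 54.5% elsewhere, CMIP and ADAMTS12 have their lowest share in 143B labelled sgNAT10, and SERINC2 stays between 93.5% and 96.1%.

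**Figure D3:**
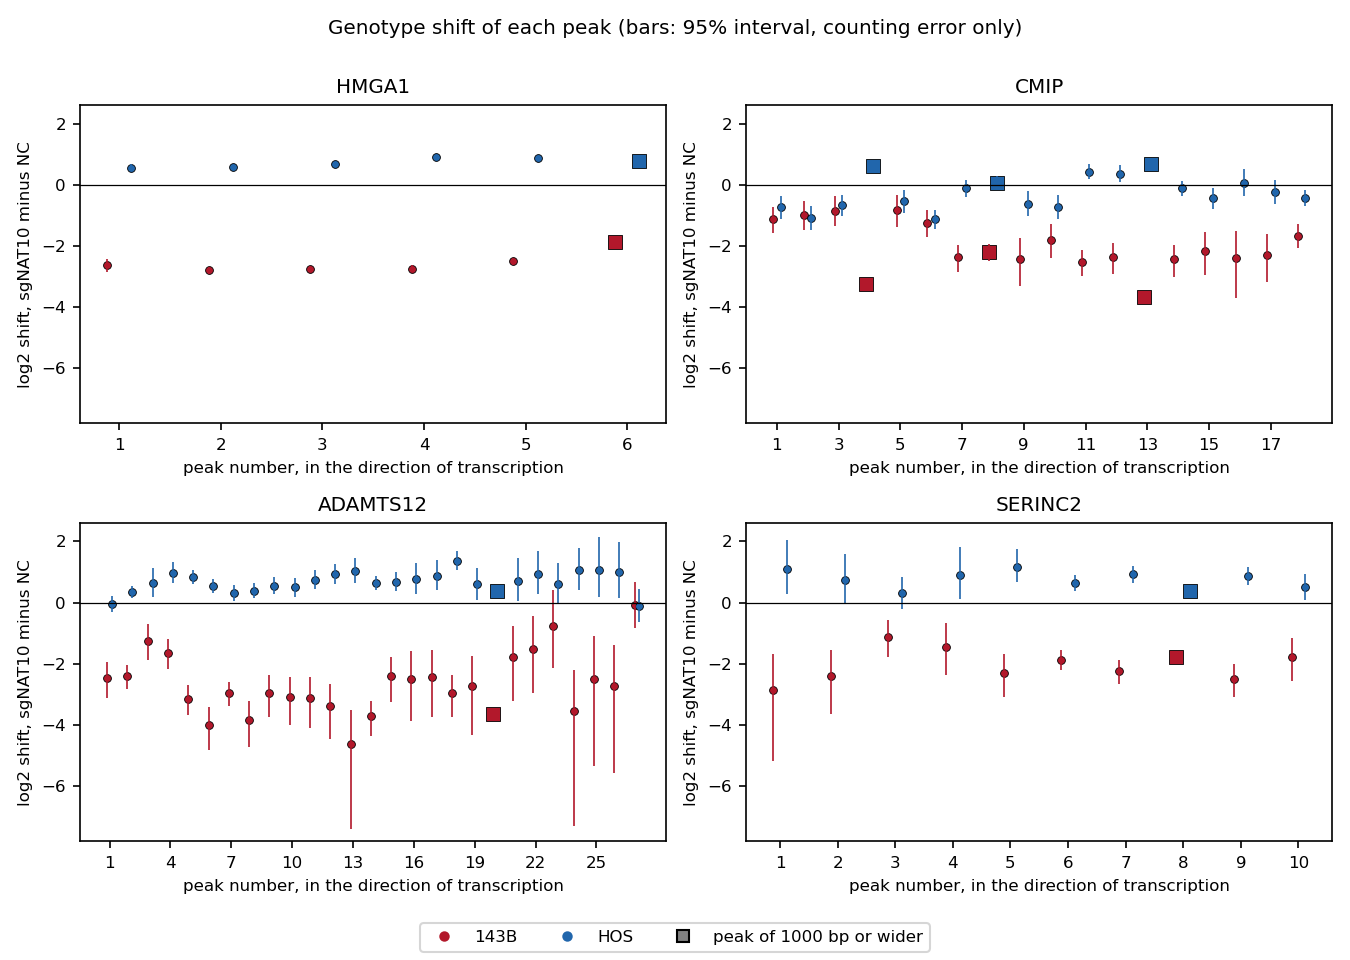
Log2 shift (sgNAT10 minus NC) of each peak in 143B and HOS, by peak number in the direction of transcription. Squares are peaks of 1000 bp or wider and bars are 95% intervals for counting error only, without a replicate check. All 143B points lie below 0, and the HOS points of CMIP lie on both sides of 0.

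Across all peaks tested, 21.4% were at least 2-fold lower in 143B labelled sgNAT10 and 24.4% at least 2-fold higher in HOS sgNAT10, while 6.2% were both. Of the 61 member peaks, 56 were at least 2-fold lower in 143B, 6 at least 2-fold higher in HOS, and the same 6 met both limits. The count of members at least 2-fold higher in HOS was 2 with DESeq2-type factors, 3 with upper quartile factors and 38 with totals alone, where 10744 of all 24467 peaks were, so its place against the background depends on the scaling. None was at least 2-fold higher in 143B, against 20.1% of all tested peaks, and CMIP peaks 2 and 6 were at least 2-fold lower in HOS, against 8.74%. The members were chosen with these values known, so the difference from the background is no evidence of its own. Lower in 143B and higher in HOS by any amount were 47 of the 61, against 29.2% of all peaks. The split among all peaks past 2-fold, 4927 higher and 5229 lower in 143B and 5968 higher and 2138 lower in HOS, moved to 6389 and 4351 in 143B with upper quartile factors, then to 7308 and 3830 in 143B and 10744 and 611 in HOS with totals alone.

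Most other wide peaks of protein-coding genes also lay lower in 143B labelled sgNAT10 and higher in HOS sgNAT10. Among the 376 that passed the filter the median was -2.11 in 143B and 0.94 in HOS, with 84.0% at least 2-fold lower in 143B and 44.1% at least 2-fold higher in HOS, where 94.1% were higher by any amount. The 6 wide member peaks had medians of -2.73 and 0.51, with 6 at least 2-fold lower in 143B and 0 at least 2-fold higher in HOS. The 12543 other narrow peaks of protein-coding genes had medians of -0.19 and 0.04, and the 3522 of them with a mean count of 100 or more had -0.64 and -0.36. The 55 narrow member peaks had -2.42 and 0.59, so their pooled median lay nearer to that of other wide peaks than to that of other narrow ones. This did not hold for CMIP in HOS, where the narrow median was -0.45, against 0.68 in HMGA1, 0.70 in ADAMTS12 and 0.86 in SERINC2. No test of these differences was made, since the members were chosen on these values.

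**Figure D4:**
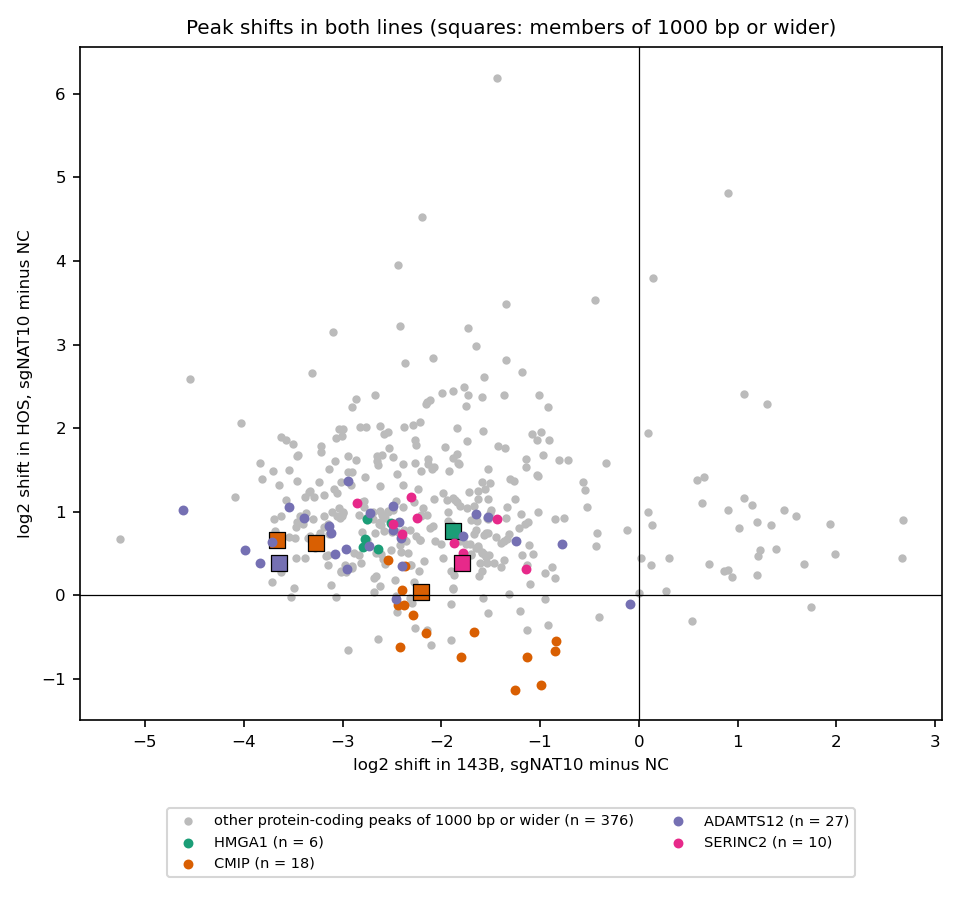
Log2 shift in 143B (x axis) against log2 shift in HOS (y axis), both sgNAT10 minus NC, for the 61 member peaks, coloured by gene with squares for those of 1000 bp or wider, and for 376 other protein-coding peaks of that width (grey). All members lie left of 0 on the x axis, and the lowest points on the y axis are CMIP peaks.

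A test across lines, with cell line as a block, called no peak. With the edgeR quasi-likelihood test and Benjamini-Hochberg adjustment over 24467 peaks, 0.0% passed an adjusted p of 0.05, 945 peaks had an unadjusted p under 0.05, and the smallest adjusted p was 0.0548. DESeq2 also gave 0, with 500 peaks at an unadjusted p under 0.05, as did limma-trend, with 1090. The 61 members were tested within this fit and 0 were called. It has 1 residual degree of freedom and tests changes shared by both lines, and whether the lines differ cannot be tested with 1 library per group.

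Most relatives of the 4 genes had other shifts than the members. Of 10 HMG genes (HMGA1 included), which encode chromatin proteins of the HMGA, HMGB and HMGN types, 9 had a tested gene sum, with 2 at least 2-fold lower and 1 higher in 143B and 1 lower and 1 higher in HOS. Their medians were 0.01 and -0.42, against 0.17 and 0.04 over all 8063 gene sums, of which 17.6% were at least 2-fold lower and 20.4% at least 2-fold higher in 143B, and 12.7% at least 2-fold lower and 16.8% at least 2-fold higher in HOS. HMGA2, the closest relative of HMGA1, had 739 counts in 143B labelled sgNAT10 against 1025 in 143B NC, and 1123 in HOS sgNAT10 against 1279 in HOS NC, shifts of -0.97 (-1.11 to -0.83) and -0.54 (-0.66 to -0.42). HMGB3 had -2.09 in 143B and -0.74 in HOS, and HMGN5, a nucleosome-binding protein, had -0.34 and 1.03. In the other direction from HMGA1 lay HMGB1 (0.36 and -0.64), HMGB2 (0.42 and -0.42), HMGN1 (1.60 and -0.28) and HMGN2 (0.01 and -1.08). With totals alone, which adds 0.59 to the HOS shifts, HMGA2, HMGB2 and HMGN1 were higher in HOS sgNAT10, and HMGN5 turned in 143B. HMGN2 turned in 143B with DESeq2-type factors.

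Of 19 ADAMTS protease genes (ADAMTS12 included), 12 had a tested sum, with medians of -0.02 and -0.06, 3 at least 2-fold lower in 143B and 2 at least 2-fold higher in HOS. ADAMTS16 had 109 counts in 143B labelled sgNAT10 against 335 in 143B NC, and 409 in HOS sgNAT10 against 133 in HOS NC, shifts of -2.10 (-2.44 to -1.80) and 1.26 (0.98 to 1.56), and ADAMTS7 had 0.18 and -0.10. Of 5 SERINC genes (SERINC2 included), 4 had a tested sum, with medians of 0.13 and 0.08, 1 at least 2-fold lower and 1 at least 2-fold higher in 143B. SERINC3 had 181 counts in 143B labelled sgNAT10 against 109 in 143B NC, and 215 in HOS sgNAT10 against 228 in HOS NC, shifts of 0.23 (-0.12 to 0.59) and -0.43 (-0.71 to -0.16). In HOS the signs of ADAMTS7 and SERINC3 turned with totals alone. Of 6 reported partners of CMIP, 2 had a tested sum, and the transcription factor gene MAF had shifts of 0.35 and 1.17. The relatives of ADAMTS12 and SERINC2 had far fewer counts than these genes, with at most 409 and 228 in any library among those named.

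The genes most like each member over the 4 libraries were found by the distance between log2 CPM values centred on each gene's mean, among 3152 other gene sums with a mean count of 100 or more. Nearest to HMGA1 were EML1, a microtubule-binding protein gene (distance 0.037), MPPED1 (0.107) and GMEB2 (0.113). CMIP was nearest to XXYLT1, a xylosyltransferase gene (0.220), the pseudogene ERLEC1P1 (0.253) and CHCHD6 of the mitochondrial inner membrane (0.275), which have peaks of up to 4666, 2973 and 14485 bp. ADAMTS12 was nearest to the mannosidase gene MAN2B2 (0.564), to CMIP (0.577) and to NXPH4 (0.631). SERINC2 was nearest to LDOC1 (0.051), FBRSL1 (0.052) and CCDC88C, a Wnt signalling regulator gene (0.096). Most of the genes nearest to HMGA1 and SERINC2 had no wide peak. Their widest peaks were 551, 1016 and 389 bp for HMGA1 and 274, 841 and 251 bp for SERINC2, in the order named. The widest peak was 3815 bp in MAN2B2 and 302 bp in NXPH4. The median distance of an eligible gene was 2.06 from HMGA1, 2.77 from CMIP, 3.23 from ADAMTS12 and 1.59 from SERINC2. Of the members, CMIP ranked 2 from ADAMTS12, whereas HMGA1 ranked 336 and ADAMTS12 ranked 2536 in distance from SERINC2.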

How the data were processed

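Counts are raw read counts per peak interval, deposited by the authors for 31395 intervals, with the 143B and HOS libraries in separate tables that share them. Column names give line and genotype, not the assay. They were taken as acRIP from the names of the tables, which say RIP. The submitters' processing notes name GRCh38, FastQC, STAR, SAMtools and deepTools without versions. The peak caller, counter, strand setting and start convention are not given in the sources used here.

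From these counts, peaks were matched to RefSeq gene spans and a peak was given to a non-member gene if it overlapped 1 protein-coding gene or else 1 gene in all. Peaks were filtered with filterByExpr (minimum count 10, minimum total 15), scaled with TMM factors and tested in edgeR 4.0.16 (R 4.3.3), with DESeq2 1.42.0 and limma 3.58.1 as alternatives. Within a line no test was possible, and shifts were computed from log2 CPM with a prior count of 1. Intervals are exact conditional binomial, Poisson or binomial (SciPy 1.17.1), and cover counting error only, since reads of 1 molecule cannot be recognised. The edgeR step was also run on simulated data, and its power to find changes is not reported here. The named genes are the 4 members, NAT10, the 3 genes nearest to each member, and family members with a mean count of 100 or more or the highest of the family. HMGA1P3, CDH1, KRT18, KRT8, SPARC, RUNX2 and the single peaks named were chosen after their values were seen. The members and lists were chosen with earlier results of these data known.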

Additional observations from a re-analysis of the deposited data

Results flagged for a closer look

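The gene sums of the members went opposite ways in the 2 lines, with 1 library per genotype in each line, so the difference between lines was not tested. The HOS shift minus the 143B shift was 2.95 for HMGA1, 3.64 for CMIP, 3.84 for ADAMTS12 and 2.20 for SERINC2. By peak it was 3.19, 3.38, 3.44, 3.66, 3.38 and 2.64 for HMGA1 peaks 1 to 6, and 3.89, 2.25, 2.96, 2.72 and 4.33 for CMIP peaks 4, 8, 11, 12 and 13. For ADAMTS12 peaks 13, 18, 19, 20, 21, 23 and 24 it was 5.64, 4.31, 3.33, 4.03, 2.49, 1.39 and 4.60. For SERINC2 peaks 1, 2, 3, 5, 7, 8 and 9 it was 3.95, 3.13, 1.45, 3.48, 3.16, 2.17 and 3.34. Not every member peak is listed here. In 12 CMIP peaks and 2 ADAMTS12 peaks, sgNAT10 was lower than NC in both lines. Over these CMIP peaks the difference ran between -0.09 (peak 2) and 2.31 (peak 14).

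The genes nearest to a member had the same pattern by the way they were chosen, with 2.97 for EML1, 2.94 for MPPED1, 3.11 for GMEB2, 3.36 for XXYLT1, 3.91 for ERLEC1P1, 4.05 for CHCHD6, 4.85 for MAN2B2, 3.41 for NXPH4, 2.16 for LDOC1, 2.18 for FBRSL1 and 2.05 for CCDC88C. Among relatives it was 1.37 for HMGN5, 3.37 for ADAMTS16 and 4.29 for the pseudogene HMGA1P3. It was negative for HMGB1 (-1.01), HMGB2 (-0.83), HMGN1 (-1.88), HMGN2 (-1.09), ADAMTS7 (-0.28) and SERINC3 (-0.67). For NAT10, the targeted gene, it was -2.35.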

How the results depend on the processing

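The gene sums kept their direction in both lines under every scaling, and a prior count of 5 moved none of the 8 beyond its counting interval. In 143B the shifts of HMGA1, CMIP, ADAMTS12 and SERINC2 were -2.29, -3.21, -3.50 and -1.88 with DESeq2-type factors, -1.99, -2.91, -3.20 and -1.59 with upper quartile factors, then -1.85, -2.77, -3.06 and -1.45 with library totals alone. In HOS they were 0.60, 0.36, 0.28 and 0.25, then 0.66, 0.42, 0.34 and 0.31, then 1.34, 1.10, 1.02 and 0.99, with the same settings. From peaks of 1000 bp or wider alone, the 143B shifts were -1.88 for HMGA1, -3.44 for CMIP and -3.65 for ADAMTS12, and the HOS shifts 0.64 for CMIP and 0.39 for ADAMTS12. From narrower peaks alone, the 143B shifts were -2.71, -1.82, -2.82 and -2.05 in the same gene order, and the HOS shifts 0.62 for ADAMTS12 and 0.77 for SERINC2, while CMIP turned to -0.31. From peaks that overlap no other gene, the shifts in 143B and HOS were -2.04 and 0.80 for HMGA1, -2.69 and 0.37 for CMIP, and -1.76 and 0.59 for SERINC2.

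Signs of single peaks turned in HOS for CMIP peaks 8 and 16 (-0.11 and -0.096 with DESeq2-type factors, -0.049 and -0.034 with upper quartile factors), and with totals alone for CMIP peaks 5, 7, 14, 15, 17 and 18 (0.036, 0.46, 0.46, 0.14, 0.34 and 0.14) and ADAMTS12 peaks 1 and 27 (0.54 and 0.48). In 143B, ADAMTS12 peak 27 turned to 0.11 with upper quartile factors and 0.25 with totals alone. The cause of these changes is the constant that a scaling adds to every shift of a line. The test across lines called 1 of 31395 peaks without a filter and 6 of 5938 with a mean count of 100 or more, none of them a member, and 0 under the other settings. With library totals alone, 611 peaks were at least 2-fold lower and 10744 at least 2-fold higher in HOS. The test across lines pairs the genotypes by cell line, and without that block it also called 0 peaks, with 499 at an unadjusted p under 0.05. Replicate numbers are not given in the labels, so there was no pairing by replicate.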
